A study of Mus musculus with 2 samples.

Results

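The TNF superfamily joins trimeric ligands, most of them made as membrane proteins that a protease can shed, with receptors that pass the signal on through adaptor proteins. Receptors with a cytoplasmic death domain can start cell death, while those that bind TRAF adaptors mainly switch on NF-kappaB and MAP kinases, and decoy receptors bind a ligand without passing on its signal. Monocytes and macrophages are a main source of TNF itself, respond to it through both TNF receptors, and need the receptor RANK to become osteoclasts. The genes described here are the 41 rows, of 47643 in the deposited table, whose symbol is that of a TNF superfamily ligand (17 genes) or receptor (24 genes). They were picked by name and not by their values, though earlier results of these data were known when the set was chosen.

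The study sequenced RNA from 2 kinds of mouse cells with 1 library each. The first library came from LPA-derived macrophages, which are bone marrow monocytes that had been differentiated with lysophosphatidic acid (LPA), a phospholipid that signals through cell surface receptors. The second came from bone marrow monocytes. Both were from wild type C57BL/6 mice aged 6 weeks, and the sources used here do not give the number of animals, the time in culture or how the monocytes were isolated. No macrophages made without LPA are among the samples, so LPA, culture and differentiation cannot be told apart. The macrophage library held 16726342 and the monocyte library 12473180 unique exon reads, and a level in CPM is the count per 1000000 of these.

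As each group is 1 library, no difference below has a replicate check, a test or a p-value. Each fold change is a plain ratio of CPM values, macrophages over monocytes unless said otherwise, with an exact 95% interval in brackets that covers counting error only. As a check of the labels, macrophages exceeded monocytes by 2-fold or more for 9 of 9 macrophage markers and were lower by 2-fold or more for 5 of 7 monocyte markers. Of the other monocyte markers, Cd14 lay within 2-fold, and Csf1r, which is in both lists, was higher in macrophages (log2 ratio 1.54). Markers of other marrow cells were also counted: 6 erythroid genes summed to 2.81 CPM in macrophages and 135 CPM in monocytes, and 8 neutrophil genes to 6124 and 18718 CPM. The neutrophil genes were split, with 5 lower (S100a8, S100a9, Ngp, Ltf and Camp) and 3 higher in macrophages (Cxcr2, Mmp8 and Retnlg). In the same order, 6 eosinophil, basophil and mast cell genes summed to 367 and 2344 CPM. For 7 dendritic cell genes the sums were 20.8 and 91.2 CPM, and for 8 stroma and endothelium genes 923 and 1845 CPM. Of those at 5 CPM or more in either library, 3 were lower in each list, and 0, 1 and 1 were higher. The part of these cells in the superfamily counts was not tested. In such bulk samples fewer cells of a type and less RNA per cell cannot be told apart.

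Genes at 5 CPM or more in either library were compared, and a gene was called higher or lower at 2-fold on the scale of log2(CPM + 1). Of the 41 superfamily genes, 19 reached that level, 11 receptors and 8 ligands, and the other 22 stayed under it in both libraries. Among the 19, the macrophage library was higher for 4 genes, Tnfrsf11a, Tnfsf12, Tnfrsf1b and Ltb. It was lower for another 4, Tnfsf9, Tnfsf10, Tnfsf13b and Tnf, all of them ligands. That split depends on which reads are counted: reads over the whole gene gave 3 ligands and Tnfrsf23 as lower. Reads across splice junctions gave no ligand and Cd27, but only 5 ligands reached 5 CPM by those reads. Tnfsf9 and Tnfsf10 were not among them, and Tnf and Tnfsf13b lay within 2-fold at log2 ratios of -0.79 and -0.91. Of all genes, 2183 of 10915 were lower by whole-gene reads and 1905 of 9584 (19.9%) by splice junction reads. Of all 10407 genes at that level, 13.8% were called higher and 19.9% lower, against 21.1% of the 19 in each direction. These shares rest on 4 genes each and lie near those of all genes. At 4-fold, 2 genes were higher (Tnfrsf11a and Tnfsf12) and 1 was lower (Tnfsf9), and of all genes 5.92% and 6.70% were past that limit.

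The median log2 ratio of the 19 genes was -0.53, and that of all genes was -0.23, so the superfamily median stood at -0.30 relative to all genes. Receptors had a median of -0.31 and ligands of -0.89. Scaling matters for the genes near 2-fold, among the superfamily as among all genes. After centring on the median of all genes 5 superfamily genes were higher and 2 lower, and of all genes 17.4% and 14.6% were. Of the superfamily genes 5 were higher and 3 lower by the ratios of the authors' deposited table, and of all genes 16.2% in each direction. Of the 19 genes, 15 reached 5 CPM in both libraries, of which 3 were higher and 2 lower. The remaining 4 reached it in 1 library only, Tnfsf12 in macrophages and Tnfsf9, Tnfsf10 and Tnfsf13 in monocytes, which by itself favours a difference.

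**Figure D1:**
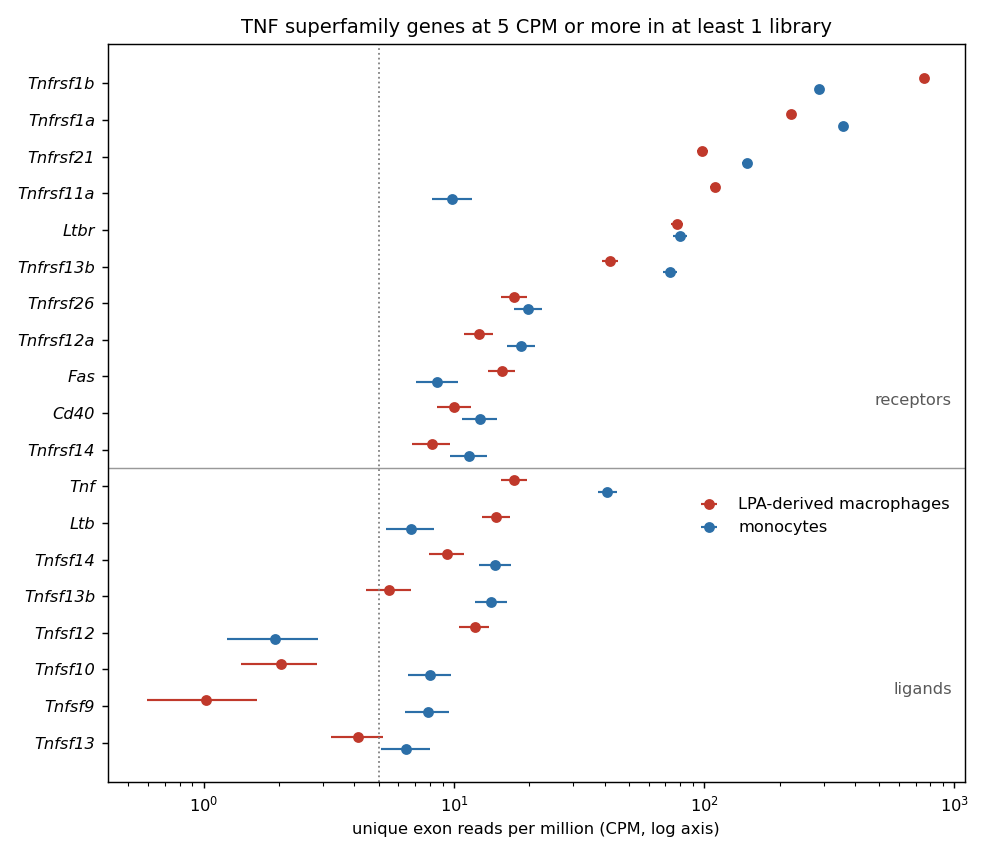
Levels of the 19 superfamily genes at 5 CPM or more in at least 1 library (dotted line), in CPM on a log axis, with receptors above and ligands below the grey line. Points are single libraries and bars their exact 95% Poisson counting intervals. Tnfrsf11a at 110.2 CPM in macrophages and 9.86 CPM in monocytes shows the widest gap among receptors.

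The receptors of TNF held the highest levels in both libraries, but in opposite order. Tnfrsf1b encodes TNFR2, a TRAF-binding receptor that prefers membrane-bound TNF. The gene lies on chromosome 4 (145213463 to 145246870 on GRCm38, as all coordinates here). It had 12607 reads in macrophages and 3578 reads in monocytes, or 754 and 287 CPM, a ratio of 2.63 (2.53 to 2.73). Tnfrsf1a encodes TNFR1, the death-domain receptor that also responds to soluble TNF. The gene lies on chromosome 6 (125349362 to 125362484). It had 3702 reads in macrophages and 4463 in monocytes, or 221 and 358 CPM, which is within 2-fold (ratio 0.619, 0.592 to 0.646). Per kilobase of exon (the deposited RPKM), Tnfrsf1b stood first in macrophages at 174 RPKM with Tnfrsf1a second at 75.2 RPKM, whereas in monocytes Tnfrsf1a stood first at 116 RPKM with Tnfrsf1b second at 63.1 RPKM. The RPKM of Tnfrsf1b over that of Tnfrsf1a was thus 2.31 in macrophages and 0.544 in monocytes. That within-library ratio, which no scaling of the libraries can move, was 4.25 times as high in macrophages (approximate 95% counting interval 4.01 to 4.50).

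Tnfrsf1b took up 52.2% of all reads counted on superfamily genes in macrophages (95% Wilson interval 51.5 to 52.8) and 24.9% in monocytes (24.2 to 25.6). Tnfrsf1a made up 15.3% in macrophages (14.9 to 15.8) and 31.0% in monocytes (30.3 to 31.8). The superfamily as a whole had 24174 reads (1445 CPM) in macrophages and 14379 reads (1153 CPM) in monocytes. All 17 ligands together took 4.69% of these reads in macrophages (4.43 to 4.96) and 9.17% in monocytes (8.71 to 9.65).

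**Figure D2:**
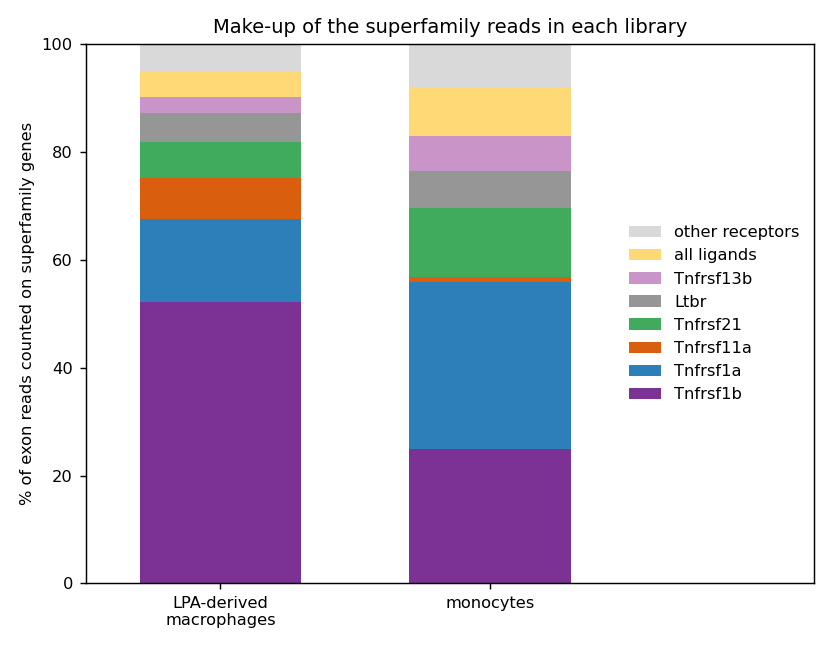
Share, in percent, of the exon reads counted on the 41 superfamily genes that fell on each of 6 receptors, on all 17 ligands together and on all other receptors, for the macrophage library (left) and the monocyte library (right). Tnfrsf1b fills 52.2% of the macrophage bar and 24.9% of the monocyte bar, and Tnfrsf11a 7.62% and 0.855%.

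The ligand of both receptors, Tnf, the inflammatory cytokine that gives the family its name, was lower in macrophages. It had 291 reads in macrophages and 511 in monocytes, or 17.4 and 40.97 CPM, and was 2.35-fold lower in macrophages (2.04 to 2.73). The call is a narrow one, since the log2 ratio of -1.19 was -0.96 after centring on all genes, -0.98 with trimmed mean scaling and -0.79 from reads across splice junctions. Per kilobase, Tnf stood at 0.0538 of the level of Tnfrsf1b in macrophages and at 0.333 of it in monocytes.

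Lta and Ltb, the lymphotoxin genes, flank Tnf on chromosome 17, and the 3 genes span 10.9 kb (35194439 to 35205351, with Tnf itself at 35199381 to 35202007). Lymphotoxin beta, encoded by Ltb, is a membrane protein that anchors lymphotoxin alpha to the cell surface and binds the lymphotoxin beta receptor. Ltb lay on the other side from Tnf, with 247 reads in macrophages and 84 in monocytes, or 14.8 and 6.73 CPM, and was 2.19-fold higher in macrophages (1.71 to 2.84). Its log2 ratio of 1.03 was just past the limit, and was 0.75 with a pseudocount of 5 CPM. The Ltb to Tnf ratio in RPKM was 0.918 in macrophages and 0.178 in monocytes, a 5.16-fold difference (approximate interval 3.88 to 6.88) free of library scaling. Lta, which encodes lymphotoxin alpha, had 1 read in macrophages and 0 in monocytes.

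Because these neighbouring genes differed in direction, the 250 bases before the RefSeq start of each, on GRCm38.p6, are shown 5′ to 3′ on the strand of the gene. Capitals mark a match to the kappaB consensus, the binding motif of NF-kappaB (in Ltb, read on the opposite strand), and a TATAAA box (in Tnf). Ltb lies on the plus strand, and its window is chr17:35194257-35194506. The gene as counted starts earlier than the RefSeq start, at 35194439, so the end of this window lies within it. Tnf lies on the minus strand, and its window is chr17:35202008-35202257.
Ltb: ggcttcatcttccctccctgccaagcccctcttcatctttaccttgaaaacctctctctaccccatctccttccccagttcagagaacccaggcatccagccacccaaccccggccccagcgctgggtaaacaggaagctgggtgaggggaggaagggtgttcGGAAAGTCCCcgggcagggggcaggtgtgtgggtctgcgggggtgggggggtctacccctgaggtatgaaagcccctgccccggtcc
Tnf: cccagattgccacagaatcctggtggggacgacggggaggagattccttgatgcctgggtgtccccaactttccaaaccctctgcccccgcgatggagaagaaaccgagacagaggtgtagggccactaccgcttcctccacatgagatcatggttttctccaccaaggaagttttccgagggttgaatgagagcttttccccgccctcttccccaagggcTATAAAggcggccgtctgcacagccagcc
The kappaB match in the Ltb window runs from base -87 to -78 before the RefSeq start, and no other motif searched was found there. The TATAAA in the Tnf window runs from base -29 to -24, and neither the kappaB consensus nor the AP-1 motif TGANTCA was found in those 250 bases. Over both strands, 3 of 35 windows of 31 superfamily genes held a kappaB match (8.57%, in Ltb, Tnfrsf8 and Tnfrsf9), against 3.90% of 32851 windows of all genes. TGANTCA was in 6 of the 35 (17.1%, in Fas, Tnfrsf8, Tnfrsf9, Tnfsf13, Tnfsf13b and Tnfsf14), against 6.75% of all windows. TATAAA, searched on the strand of the gene, was in 4 (11.4%) against 7.59%. The myeloid motif of PU.1, searched as GAGGAAGT on both strands, was in 1 (2.86%, in Tnfsf18) against 2.44%, and the cyclic AMP response element TGACGTCA was in 0 against 1.55%. The windows of Tnfrsf1b and Tnfrsf11a held none of these 5 motifs. Such matches describe the letters only.

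Tnfrsf11a showed the largest ratio among the 19 genes. It encodes RANK, the TRAF-binding receptor through which RANK ligand drives osteoclast formation. It had 1843 reads in macrophages and 123 in monocytes, or 110.2 and 9.86 CPM, 11.2-fold apart (9.31 to 13.5). Per kilobase it had rank 5 among the 41 genes in macrophages at 16.2 RPKM and rank 18 in monocytes at 1.38 RPKM. The gene lies on the plus strand of chromosome 1 (105780718 to 105847981). Reads across splice junctions made up 12.9% of its exon reads in macrophages (238 reads) and 25.2% in monocytes (31 reads), and on junction reads alone the log2 ratio was 2.39 in place of 3.36. The RPKM of Tnfrsf11a was 0.216 of that of Tnfrsf1a in macrophages and 0.0119 of it in monocytes. By exon reads that ratio was thus 18.1 times as high in macrophages (approximate interval 15.0 to 21.8).

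The other genes of the RANK axis had few reads. Tnfsf11, the gene of RANK ligand, had 13 reads in macrophages and 23 in monocytes. Tnfrsf11b, the gene of osteoprotegerin, the secreted decoy that captures RANK ligand, had 23 reads in macrophages and 1 in monocytes, a ratio of 17.2 with a wide interval (2.79 to 707). Both stayed under 5 CPM, at 0.777 and 1.84 CPM for Tnfsf11 and at 1.38 and 0.0802 CPM for Tnfrsf11b.

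Of the 5 death-domain receptors, 3 reached 5 CPM and none of them differed by 2-fold. Besides Tnfrsf1a, Tnfrsf21 (death receptor 6) had 98.3 CPM in macrophages and 148 CPM in monocytes, a ratio of 0.666 (0.623 to 0.713). Fas, which starts apoptosis when bound by Fas ligand, had 259 reads in macrophages and 107 in monocytes, or 15.5 and 8.58 CPM, a ratio of 1.81 (1.44 to 2.28). It was the death-domain receptor nearest to the limit: its log2 ratio of 0.78 was 1.02 after centring and 1.19 in the authors' deposited table. Intron reads of Fas were also more numerous in macrophages, 173 against 56. Tnfrsf10b, the mouse receptor of TRAIL that carries a death domain, had 21 reads in macrophages and 31 in monocytes. Tnfrsf25 (death receptor 3) had 2 and 6 reads.

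Apart from Tnfrsf1b and Tnfrsf11a, the TRAF-binding receptors that reached 5 CPM lay within 2-fold. Ltbr, the lymphotoxin beta receptor, had 77.8 CPM in macrophages and 79.9 CPM in monocytes, a ratio of 0.973 (0.895 to 1.06), and its log2 ratio of -0.04 was 0.19 after centring. Tnfrsf13b encodes TACI, a receptor of BAFF and APRIL best known from B cells. It had 704 reads in macrophages and 913 in monocytes, or 42.1 and 73.2 CPM, a ratio of 0.575 (0.520 to 0.635). Reads across splice junctions were a small part of the exon reads of Tnfrsf13b, 7.24% in macrophages and 8.32% in monocytes, whereas for Tnfrsf1a they were 39.3% and 39.95%.

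Lower in level were Tnfrsf12a, Cd40 and Tnfrsf14. Tnfrsf12a (Fn14, the receptor of TWEAK) stood at 12.6 CPM in macrophages and 18.6 CPM in monocytes. Cd40, the costimulatory receptor through which T cells activate macrophages and B cells, stood at 10.04 and 12.7 CPM. Tnfrsf14 (HVEM, a receptor of LIGHT) stood at 8.13 and 11.5 CPM. The ratios of these 3 receptors ran from 0.675 to 0.793, and relative to the median of all genes each lay nearer to 1. Tnfrsf26, which lies beside the mouse decoy receptor genes Tnfrsf22 and Tnfrsf23 on chromosome 7, had 17.4 CPM in macrophages and 19.8 CPM in monocytes, a ratio of 0.879 (0.739 to 1.05).

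The other TRAF-binding receptors, most of them known from lymphocytes, stayed under 5 CPM. Cd27, a costimulatory receptor of T and B cells, had 0 reads in macrophages and 53 in monocytes. With 3 reads in place of the 0 it was 23.7-fold lower in macrophages, and the exact interval starts at 18.6. Tnfrsf18 (GITR) had 4 reads in macrophages and 31 in monocytes and was 10.4-fold lower (3.67 to 40.5). Tnfrsf19 (TROY, known from neural and epithelial tissue) had 1 and 18 reads and was 24.1-fold lower (3.81 to 1006), and Tnfrsf13c, the BAFF receptor gene of B cells, had 7 and 24 reads and was 4.60-fold lower (1.92 to 12.6). These were the 4 of 20 receptors lower by 2-fold when the level asked for was 1 CPM, where 19.8% of all genes were lower, so that this count is no feature of the receptors. At that level 3 receptors were higher, and 14.4% of all genes were. Tnfrsf8 (CD30) had 34 reads in macrophages and 51 in monocytes. Tnfrsf4 (OX40) had 18 and 9 reads, Tnfrsf9 (4-1BB) 1 and 2 reads, and Tnfrsf17 (BCMA, the plasma cell receptor of APRIL and BAFF) 0 reads in both libraries. A count of 0 allows up to 0.179 CPM in macrophages and 0.241 CPM in monocytes.

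Lymphocyte markers went both ways. Among 12 T and NK cell genes, Cd3d, Cd8a and Gzma had 0 reads in macrophages against 11, 9 and 15 reads in monocytes, Cd3e had 1 and 4 reads, and the list summed to 72.8 CPM in macrophages and 26.9 CPM in monocytes. Ncr1 (10 and 4 reads) and Klrb1c (11 and 7 reads) lay the other way. Of the macrophage sum, Cd28 gave 51.2 CPM and Cd4 gave 18.2 CPM. Those 2 were the only genes of the list at 5 CPM or more in either library, and both were higher in macrophages. Among 10 B lineage genes, Dntt had 0 and 318 reads and Pax5 4 and 69 reads, and the list summed to 191 and 198 CPM, with 175 CPM of the macrophage sum from Sdc1. Of the 6 B lineage genes at 5 CPM or more in either library, 4 were lower and 1 was higher in macrophages. The part of these cells in the receptor counts was not tested.

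**Figure D3:**
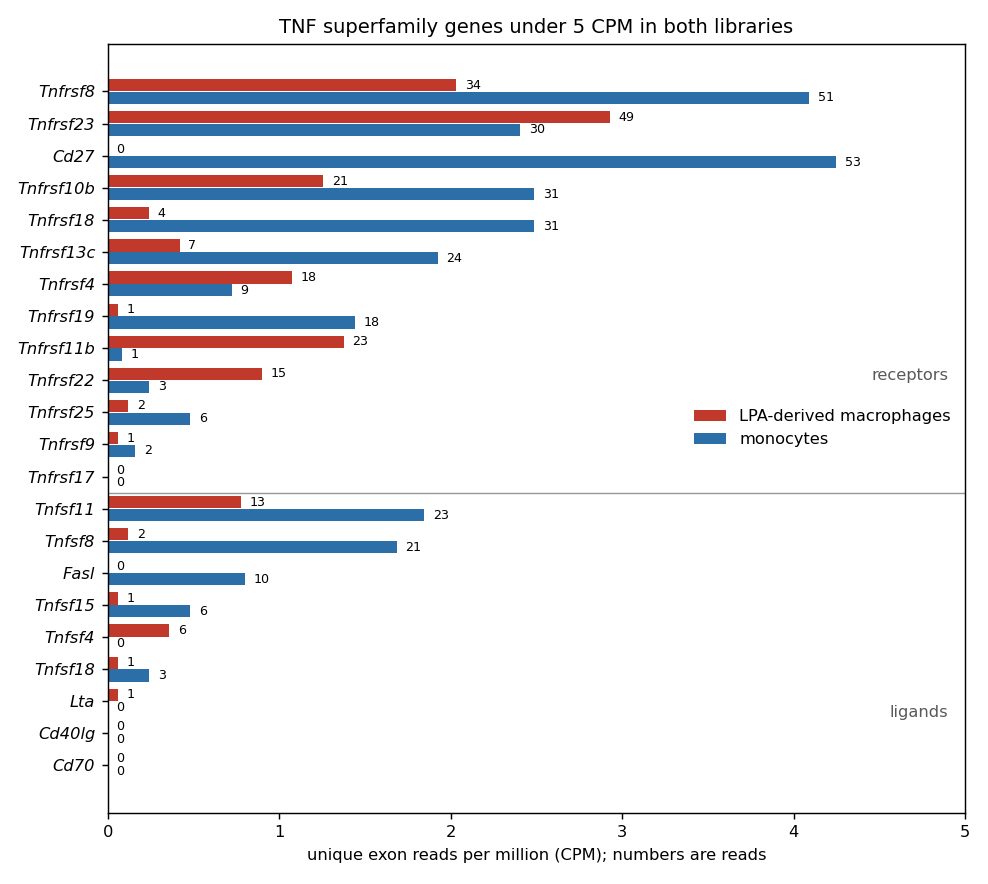
Levels of the 22 superfamily genes under 5 CPM in both libraries, in CPM, with the number of reads printed at each bar and receptors above ligands. Cd27 with 0 reads in macrophages and 53 in monocytes, and Tnfrsf11b with 23 and 1 reads, lie at the extremes, and Tnfrsf17, Cd40lg and Cd70 had no read in either library.

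The mouse decoy receptors of TRAIL stayed under 5 CPM. Tnfrsf23 had 49 exon reads in macrophages and 30 in monocytes, a ratio of 1.22 (0.758 to 1.99). Its intron reads lay the other way, with 41 in macrophages and 218 in monocytes, so that the authors' deposited table, which rests on gene reads, has a signed fold of -3.40 (minus meaning lower in macrophages). A long gene named RP23-6I17.1 overlaps Tnfrsf22, Tnfrsf23 and Tnfrsf26 in the table, and it had 36 gene reads in macrophages and 47 in monocytes. Tnfrsf22 had 15 exon reads in macrophages and 3 in monocytes, a ratio of 3.73 (1.05 to 20.1).

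Besides Tnf, 3 ligands were lower in macrophages. Tnfsf9, the gene of 4-1BB ligand, which costimulates T cells, had 17 reads in macrophages and 98 in monocytes, or 1.02 and 7.86 CPM, and was 7.73-fold lower in macrophages (4.59 to 13.8). Tnfsf10, the gene of the death ligand TRAIL, had 34 and 100 reads, or 2.03 and 8.02 CPM, and was 3.94-fold lower (2.65 to 6.00), with 0 reads across splice junctions in macrophages and 11 in monocytes. Tnfsf13b encodes BAFF, the B cell survival factor made by myeloid cells. It had 92 reads in macrophages and 176 in monocytes, or 5.50 and 14.1 CPM, and was 2.57-fold lower (1.98 to 3.34). That call is narrow too, as its log2 ratio of -1.22 was -0.98 after centring, -0.89 from gene reads and -0.88 in the authors' deposited table.

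Tnfsf14, the gene of LIGHT, which binds both Ltbr and Tnfrsf14, had 157 reads in macrophages and 182 in monocytes, or 9.39 and 14.6 CPM, within 2-fold at a ratio of 0.643 (0.516 to 0.801). It shares a stretch of 88.8 kb on chromosome 17 (57105385 to 57194189) with Tnfsf9 and Cd70, the gene of the CD27 ligand. The 3 neighbours thus stood at 9.39, 1.02 and 0 CPM in macrophages and at 14.6, 7.86 and 0 CPM in monocytes.

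Tnfsf12 had the largest ratio of the 8 ligands at 5 CPM or more. It encodes TWEAK, a cytokine of tissue repair that binds Fn14. It had 202 reads in macrophages and 24 in monocytes, or 12.1 and 1.92 CPM, 6.28-fold apart (4.10 to 10.02). Tnfsf13, the gene of APRIL, lies 466 bases away on chromosome 11 and had 69 and 80 reads, or 4.13 and 6.41 CPM, a ratio of 0.643 (0.459 to 0.899). Both genes lie within Tnfsfm13, a further entry of the table (69682577 to 69696098) with 379 exon reads in macrophages and 79 in monocytes. The sources used here do not say how reads shared by these overlapping entries were divided, so the levels of Tnfsf12 and Tnfsf13 are uncertain. Reads across splice junctions, 173 in macrophages and 13 in monocytes, gave a log2 ratio of 2.92 for Tnfsf12 in place of 2.16.

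The remaining ligands are mostly known from lymphocytes and had few reads. Tnfsf8 (CD30 ligand) had 2 reads in macrophages and 21 in monocytes and was 14.1-fold lower (3.44 to 124). Fasl, the gene of Fas ligand, had 0 and 10 reads. With 3 reads in place of the 0 it was 4.47-fold lower in macrophages, and the exact interval starts at 3.01. Tnfsf15 had 1 read in macrophages and 6 in monocytes, Tnfsf18 had 1 and 3 reads, and Tnfsf4 (OX40 ligand) 6 and 0 reads. Cd40lg and Cd70 had 0 reads in both libraries.

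**Figure D4:**
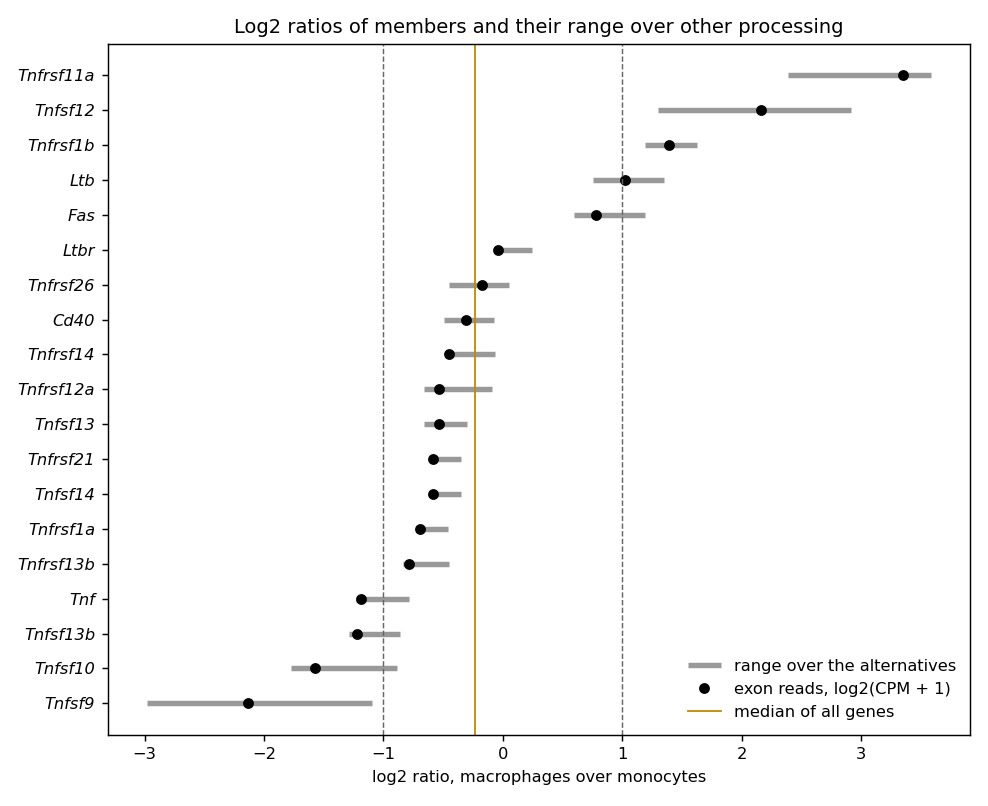
Log2 ratios, macrophages over monocytes, of the 19 superfamily genes at 5 CPM or more in a library (black points, from exon reads as log2 of CPM + 1), with grey lines from the lowest to the highest value under the other ways of processing. Dashed lines mark 2-fold and the yellow line the median of all genes at -0.23. Tnfrsf11a, Tnfsf12, Tnfrsf1b and Tnfsf9 stay past 2-fold over their whole range, and the lines of Ltb, Tnf, Tnfsf13b, Tnfsf10 and Fas cross it.

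Placed side by side, ligands and their receptors showed 4 arrangements. For TNF the ligand was lower and TNFR2 higher in macrophages, while TNFR1 lay within 2-fold. For TWEAK the ligand was higher and Fn14 lay within 2-fold, so that the RPKM of Tnfsf12 was 0.611 of that of Tnfrsf12a in macrophages and 0.0658 of it in monocytes. For BAFF the ligand was lower and TACI, its only receptor gene at 5 CPM here, within 2-fold, with a ligand to receptor ratio of 0.0540 in macrophages and 0.0796 in monocytes. For LIGHT the ligand and both receptors lay within 2-fold, and the RPKM of Tnfsf14 was 0.719 of that of Tnfrsf14 in macrophages and 0.793 of it in monocytes. Against Ltbr it was 0.153 in macrophages and 0.231 in monocytes, a change of 0.661 (approximate interval 0.526 to 0.831). The change for BAFF and TACI was close to that, 0.678 (0.517 to 0.889). The arrangements of TNF and BAFF rest on the calls of Tnf and Tnfsf13b, which are narrow and were lost in some settings. Fas, Cd40 and Tnfrsf11a were counted at 5 CPM or more while the genes of their ligands, Fasl, Cd40lg and Tnfsf11, were not, and Tnfsf9 and Tnfsf10 reached that level in monocytes while the genes of their receptors, Tnfrsf9 and Tnfrsf10b, did not.

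Of 5 superfamily genes that go under other names, only Relt reached 5 CPM. Relt, a receptor gene of blood-forming tissue, had 226 reads in macrophages and 657 in monocytes, or 13.5 and 52.7 CPM, 3.90-fold lower in macrophages (3.35 to 4.55). Eda2r, a receptor of ectodysplasin, had 31 reads in macrophages and 0 in monocytes. With 3 reads in place of the 0 it was 7.71-fold higher in macrophages, and the exact interval starts at 5.90. Ngfr had 1 and 10 reads, Eda 2 and 9 reads, and Edar 0 reads in both libraries.

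Of 45 genes in 3 lists that act below the receptors, 39 lay within 2-fold (86.7%), 5 were lower (11.1%) and 1 was higher (2.22%) in macrophages. Of all genes, 66.2% lay within 2-fold, 19.9% were lower and 13.8% higher. Of 19 genes of adaptors and ubiquitin enzymes none was higher and 2 were lower, with a median log2 ratio of -0.15. Tnfaip3 encodes A20, the ubiquitin-editing enzyme that shuts off TNF signalling to NF-kappaB. It had 82.9 CPM in macrophages and 456 CPM in monocytes and was 5.50-fold lower (5.19 to 5.84). Traf4 had 1.91 and 8.66 CPM and was 4.53-fold lower (3.03 to 6.94). Traf2, Ripk1, Tradd and Birc2, core parts of the TNFR1 complex, were among the 17 genes within 2-fold.

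Of 11 genes of death signalling none was higher and 2 were lower (18.2%), near the share of all genes, with a median of -0.39. Mlkl, the executor of necroptosis, had 12.7 CPM in macrophages and 55.7 CPM in monocytes, 4.40-fold lower (3.76 to 5.15). Ripk3, the kinase that activates MLKL, had 22.3 and 64.7 CPM, 2.90-fold lower (2.56 to 3.29). Fadd, Casp8 and Cflar lay within 2-fold.

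Of 15 kinases and partners of the NF-kappaB and MAP kinase branches 1 was higher and 1 lower, with a median of -0.34. Ikbkg, the regulatory subunit NEMO of the IKK complex, had 98.3 CPM in macrophages and 36.6 CPM in monocytes, 2.69-fold higher (2.42 to 2.99), and it overlaps G6pdx in the table. Mapk8, which encodes JNK1, had 15.96 and 42.3 CPM and was 2.65-fold lower (2.28 to 3.08). Map2k7 is not analysed here.

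A list of 9 genes of shedding and processing holds proteases, but also a cofactor and an inhibitor of ADAM17. Of the 9, 3 were higher and none was lower, where 13.8% and 19.9% of all genes were. Only Adam8 of those 3 is a protease, so the count does not measure shedding. Their median log2 ratio was 0.35, against -0.23 for all genes. Adam8, a membrane protease of leukocytes, had 1162 CPM in macrophages and 99.5 CPM in monocytes, 11.7-fold higher (11.0 to 12.4). Rhbdf1, a cofactor of ADAM17, had 104 reads in macrophages and 12 in monocytes, or 6.22 and 0.962 CPM, 6.46-fold higher (3.55 to 12.9). Timp3, an inhibitor of ADAM17 that lies inside Syn3, had 90 and 13 reads, or 5.38 and 1.04 CPM, and was 5.16-fold higher (2.87 to 10.07). Rhbdf1 and Timp3 reached 5 CPM in macrophages only, which by itself favours a difference. Adam17 itself, the protease that releases TNF from the membrane, had 254 CPM in macrophages and 139 CPM in monocytes, within 2-fold at a log2 ratio of 0.87, which was 1.10 after centring.

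**Figure D5:**
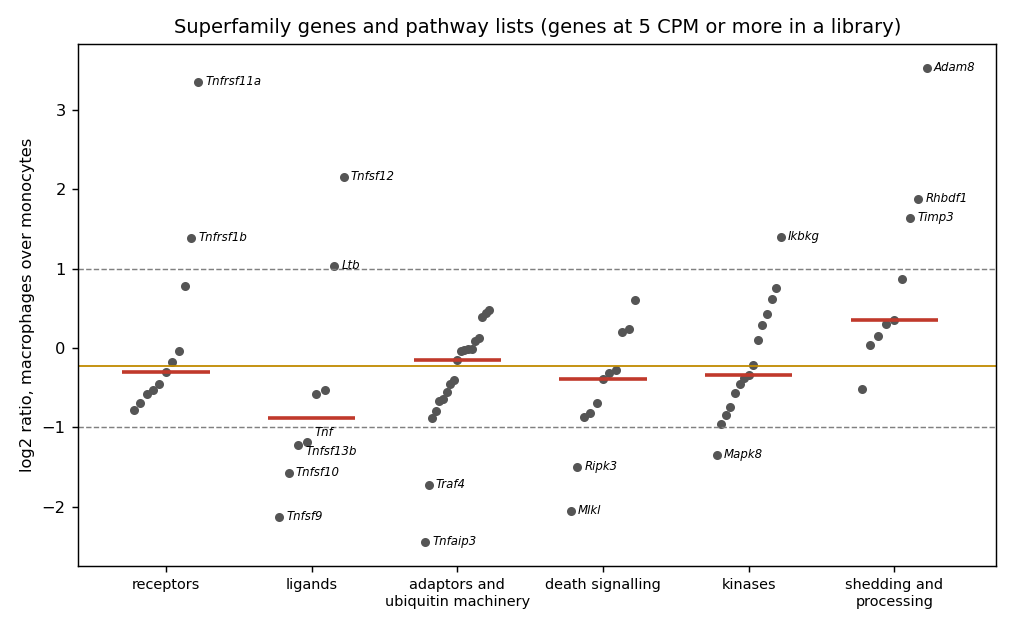
Log2 ratios, macrophages over monocytes, of receptors, ligands and 4 lists of pathway genes, for genes at 5 CPM or more in a library. Each point is a gene, red lines are medians (-0.31 for receptors, -0.89 for ligands, 0.35 for shedding and processing), dashed lines mark 2-fold, the yellow line is the median of all genes at -0.23, and genes past 2-fold are named.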

How the data were processed

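Per the labels' protocols, Trizol was used for RNA isolation and the NEBNext Ultra kit for the libraries. Per the file headers the deposited counts are reads per gene, exon, intron and splice junction, of which those classed as unique were used, and the deposited RPKM divides exon reads by exon length and library total. The authors' deposited normalized signal has the same sorted values in both libraries, and their deposited fold change, a signed score, is its ratio. The build is mm9 per the submitters' processing notes, yet starts and ends match GENCODE M21 on GRCm38 exactly for 32 of the 41 genes. The sources used here do not give the mapper or whether strand was used.

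Groups come from the sample titles. Exon counts were scaled to CPM by the library's total, a level of 5 CPM in at least 1 library was asked for, and log2 ratios used a pseudocount of 1 CPM. Intervals are exact conditional binomial (SciPy 1.17.1), and a count of 0 was set against 3 reads. Ratios of 2 genes within a library have normal approximations on the log scale. The reads carry no molecular identifiers and may repeat a molecule, so intervals cover counting error only. Alternatives were 3 other scalings (one with edgeR 4.0.16), gene or junction reads, the authors' fold change, other pseudocounts, floors and folds. The calculation was tested on simulated data. Every superfamily gene is named, and of each pathway list the genes past 2-fold, with a few others named after their values were seen. The members and lists were chosen with earlier results of these data known. 1 gene of the death signalling list is not reported here, and the list's count and median leave it out.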

Additional observations from a re-analysis of the deposited data

Results flagged for a closer look

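Intron reads were not used for the levels above. Of 30 superfamily genes with any intron read, 3 were higher in macrophages beyond counting error and 11 were lower. Over all genes, 16726342 of 18564093 gene reads were exon reads in macrophages and 12473180 of 14528763 in monocytes. Intron reads were thus a smaller part of the macrophage library as a whole, which by itself favours lower ratios. How many of all genes were higher or lower by intron reads was not counted. Without that share, these counts cannot be read as a feature of the superfamily. Scaled to all gene reads of the library, intron reads of Tnfrsf11a were 5.54 times as high in macrophages (446 reads, against 63 in monocytes, interval 4.25 to 7.33). Those of Fas were 2.42 times as high (173 against 56 reads, 1.78 to 3.33), and those of Tnfrsf1b 1.15 times as high (920 against 625 reads, 1.04 to 1.28). The 11 lower genes were Tnf, Tnfrsf1a, Tnfrsf21, Tnfrsf23, Tnfrsf26, Tnfrsf12a, Tnfrsf13b, Cd40, Tnfsf14, Tnfsf8 and Tnfsf9, with ratios between 0.0824 (Tnfsf9) and 0.681 (Tnfrsf13b). What gave rise to these intron reads was not tested.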

How the results depend on the processing

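Over 11 alternatives at 2-fold, and wherever they could be computed, 17 of the 19 genes kept the sign of their log2 ratio, the exceptions being Ltbr and Tnfrsf26, and 4 of the 8 called genes (Tnfrsf11a, Tnfrsf1b, Tnfsf12 and Tnfsf9) kept their call. With a pseudocount of 5 CPM the log2 ratios of Tnfsf12 and Tnfsf9 were 1.30 and -1.10, in place of 2.16 and -2.14, and Tnfsf10 at -0.89 lost its call. The number of lower genes is given with the share of all genes lower in brackets, and was 4 of 19 as reported (19.9%). It was 2 of 19 after centring on all genes (14.6%) and 2 of 19 with a pseudocount of 5 CPM (15.9%). At a floor of 10 CPM it was 2 of 16 (19.7%), at 1 CPM 9 of 30 (19.8%) and with no floor 9 of 38 (14.6%). With reads across splice junctions, an alternative chosen after seeing the data, it was 1 of 18 (19.9%). At 4-fold there were 2 higher and 1 lower of 19, and 5.92% and 6.70% of all genes. The number of higher genes stayed between 3 and 5 at 2-fold, and the share of all genes higher between 10.6% and 17.4%. The median log2 ratio of -0.53 was -0.18 with splice junction reads. In the pathway lists, adaptor genes counted as lower numbered 1 with a pseudocount of 5 CPM or a floor of 10 CPM and 4 with splice junction reads, and shedding genes counted as higher numbered 1 with that pseudocount or floor. Lower kinase genes numbered 2 with gene reads or splice junction reads, and higher ones 2 in the authors' deposited table. The cause of these shifts was not tested, apart from the floors and folds, which set how many genes are compared or called. Genes of few reads, such as Tnfrsf11b, Tnfrsf22 and Tnfsf8, have intervals too wide to rank. No paired analysis was possible because each group has 1 library.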
